A study of Mus musculus with 6 samples.

Results

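The 34 genes described here encode the enzymes and transporters of glycolysis and the genes of the response to low oxygen. They were picked by symbol, as a list of genes of these pathways drawn up with earlier results of these data known, out of 22548 gene symbols in the deposited tables, and each symbol was found there. Of them, 20 belong to glycolysis, namely 15 enzymes, 2 PFK-2 enzymes that set the pace of the pathway and 3 transporters. The other 14 belong to the pathway of the hypoxia-inducible factors (HIF), namely 5 subunits and oxygen-sensing hydroxylases and 9 genes known as HIF targets.

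Glycolysis splits glucose into pyruvate in the cytosol, and lactate dehydrogenase turns pyruvate into lactate, which leaves the cell through monocarboxylate transporters. HIF is a pair of an oxygen-regulated alpha subunit and the stable partner Arnt. In the presence of oxygen, prolyl hydroxylases of the Egln family mark the alpha subunit for destruction, and when oxygen falls the factor collects and turns on glycolytic enzymes, glucose transporters and further targets. In myeloid cells, inflammatory signals are known to raise Hif1a transcription as well, and granulocytes are known to rely on glycolysis.

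RNA was measured in 6 libraries of eosinophils that had been grown for 14 days out of low-density marrow cells, taken from BALB/c mice of wild type aged 4 to 8 weeks. The 6 groups, with 1 library each, were IL-33 1 h, IL-33 4 h, IL-4 1 h, IL-4 4 h, control 1 h and control 4 h, with each cytokine at 10 ng/ml and the controls without it. Every culture, the untreated ones included, began with 4 days in SCF plus FLT3 ligand (100 ng/ml of each) and then went on in IL-5 (10 ng/ml). The number of mice behind a culture is not given in the sources used here, and the cells are a culture model and not eosinophils taken from blood or tissue.

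Levels are FPKM, fragments scaled to the length of the transcript and to the size of the library, summed over the transcripts of a gene. Change is log2((FPKM + 1) / (control FPKM + 1)) within 1 deposited table, which makes the changes of scarce genes look smaller than they are. A gene was measured in a comparison when it had at least 1 FPKM in at least 1 of the 2 libraries, and it was called higher or lower when its log2 change was at least 1 in size. Since each group is a single library, the spread between replicates is unknown and p-values are not given. The tables hold no read counts. From the steps of the low values, the depth was estimated as 1.16 times that of its control for IL-33 1 h, 1.89 times for IL-33 4 h, 0.975 times for IL-4 1 h and 1.24 times for IL-4 4 h.

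The libraries carried the defining transcripts of eosinophils, and 7 eosinophil markers, with Prg2, Epx and Ccr3 among them, made up 7.24% to 9.16% of the total FPKM. Of these 7, none was higher or lower with either cytokine. With IL-33 at 4 h they made up 7.24% of the total FPKM against 8.47% in the control. In that comparison 6 of them lay below 0 and 1 above it, and the lowest log2 change was -0.89. Markers of other blood cells were present too. With IL-33 at 4 h, 6 neutrophil markers summed to 5089 FPKM, against 6825 FPKM in the control, and 5 mast cell and basophil markers to 178 FPKM, against 217 FPKM in the control, with none past the rule. Among 6 markers of monocytes, macrophages and dendritic cells, Cd14 was higher with IL-33 at 1 h, and Cd14 and Csf1r were higher with IL-33 at 4 h. The list summed to 2274 FPKM with IL-33 at 1 h against 2158 FPKM in the control, and to 2047 FPKM with IL-33 at 4 h against 1314 FPKM in the control. Over all columns 5 lymphoid markers summed to 3.70 to 5.06 FPKM and 5 erythroid and megakaryocyte markers to 213 to 257 FPKM, with Hbb-b1 under 0.1 FPKM. The part of the other cells in the changes below was not tested, and in bulk samples fewer cells of a type and less RNA per cell cannot be told apart.

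IL-33 at 4 h gave the largest changes among these genes, and they lay in the HIF pathway. Hif1a, Egln3, Ero1l and Ankrd37 were higher, which makes 4 of the 11 HIF pathway genes measured, while no gene of the pathway was lower. Of all 10803 genes compared, 4.15% were higher and 1.38% lower by the same rule. None of the 20 glycolysis genes was higher or lower. The HIF pathway genes had a median log2 change of 0.49 and the glycolysis genes of -0.14, beside -0.03 for all genes. The list was drawn up with earlier results of these data known. Its contrasts with all genes, here and below, are thus a description and not a test. Each of the 4 higher genes also had at least 1 FPKM in the control library, so none was measured through the IL-33 library alone.

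Fewer of them were past the rule with IL-33 at 1 h. Ddit4 was higher, 1 of 10 HIF pathway genes measured, and no glycolysis gene was higher or lower, where 2.36% of 10616 genes were higher and 0.669% lower. The median log2 change was 0.02 for the HIF pathway and -0.04 for glycolysis, beside -0.01 for all genes.

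**Figure D1:**
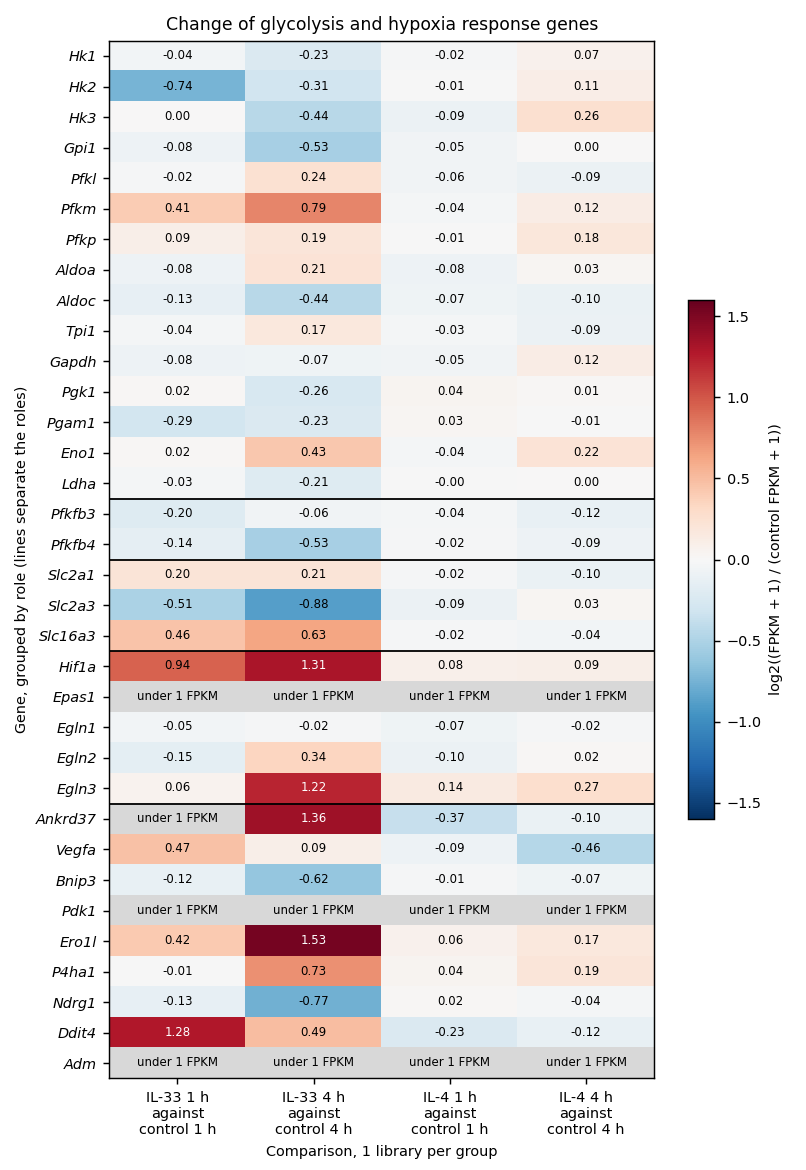
Log2 change of all 34 genes (rows, grouped by role) in the 4 comparisons of a cytokine with the control of the same time (columns), with 1 library per group; red is higher and blue lower with the cytokine, and grey cells are genes under 1 FPKM in both libraries. The strongest red stands in the IL-33 4 h column at Ero1l (1.53), Ankrd37 (1.36), Hif1a (1.31) and Egln3 (1.22), and both IL-4 columns are pale throughout.

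Hif1a, the oxygen-regulated alpha subunit HIF-1 alpha, stood at 134 FPKM with IL-33 at 1 h against 69.6 FPKM in the control, and stood at 114 FPKM with IL-33 at 4 h against 45.6 FPKM in the control. Both IL-33 libraries thus held more Hif1a than any of the other libraries. The log2 change was 0.94 at 1 h, just short of the rule, and 1.31 at 4 h. With IL-4, Hif1a stood at 78.2 FPKM at 1 h against 73.7 FPKM in the control, and at 51.5 FPKM at 4 h against 48.1 FPKM in the control (0.08 and 0.09). The gene (NM_010431) lies on chromosome 12 of mm9 at 75008853 to 75048517. A lncRNA, Gm15283, overlaps it in the RefSeq annotation.

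Epas1, the alpha subunit HIF-2 alpha, was under 1 FPKM in every library, between 0.413 and 0.662 FPKM, so it was not compared. Hif1a RNA was thus more abundant than Epas1 RNA in every library. Arnt, the stable partner, stood at 16.9 FPKM with IL-33 at 1 h against 16.7 FPKM in the control, and stood at 18.5 FPKM with IL-33 at 4 h against 15.9 FPKM in the control.

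Egln3, the prolyl hydroxylase PHD3, stood at 31.6 FPKM with IL-33 at 4 h against 13.0 FPKM in the control (log2 change 1.22). At 1 h it stood at 25.2 FPKM with IL-33 against 24.1 FPKM in the control (0.06). With IL-4 it stood at 28.2 FPKM at 1 h against 25.5 FPKM in the control (0.14), and at 16.8 FPKM at 4 h against 13.7 FPKM in the control (0.27), which was the largest positive change of a member with IL-4 at 4 h. The gene (NM_028133) lies on chromosome 12 of mm9 at 55279967 to 55304861.

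The calls for Hif1a and Egln3 at 4 h depended on which control was used, and both stood at a lower level in untreated cells of 4 h than in those of 1 h. Against the control of 1 h, in a separately normalised table, IL-33 4 h gave a log2 change of 0.71 for Hif1a and 0.38 for Egln3, both under the rule. Against the control of the other time, Hif1a with IL-33 at 1 h had a log2 change of 1.54, past the rule.

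The other 2 hydroxylases stayed close to their controls. Egln1, the prolyl hydroxylase PHD2 and the main oxygen sensor of most cells, ranged from 14.5 to 16.3 FPKM over all columns, with log2 changes between -0.07 and -0.02. Egln2, or PHD1, stood at 36.5 FPKM with IL-33 at 4 h against 28.6 FPKM in the control (0.34), and stood at 24.9 FPKM with IL-33 at 1 h against 27.8 FPKM in the control (-0.15).

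Ero1l, now named Ero1a, is the oxidase that feeds disulfide bond formation in the endoplasmic reticulum and a known HIF target. It stood at 289 FPKM with IL-33 at 4 h against 99.1 FPKM in the control, a log2 change of 1.53, the largest of all members in the 4 comparisons. At 1 h it stood at 137 FPKM with IL-33 against 102 FPKM in the control (0.42). With IL-4 it stood at 113 FPKM at 1 h against 108 FPKM in the control, and stood at 118 FPKM at 4 h against 105 FPKM in the control (0.06 and 0.17). The IL-33 4 h library was alone at this level, and untreated cells differed little between the times. Ero1l (NM_015774) lies on chromosome 14 of mm9 at 45902761 to 45938247.

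Ankrd37, an ankyrin repeat gene known mainly as a HIF-1 target, was scarce in all libraries but 1. It stood at 5.80 FPKM with IL-33 at 4 h against 1.65 FPKM in the control (log2 change 1.36), and stood at 0.498 FPKM with IL-33 at 1 h against 0.960 FPKM in the control, below the minimum for a comparison. With IL-4 it stood at 0.556 FPKM at 1 h against 1.02 FPKM in the control, and stood at 1.55 FPKM at 4 h against 1.74 FPKM in the control. At such levels the call rests on the scale, and with a pseudocount of 5 the log2 change with IL-33 at 4 h was 0.70. Ankrd37 (NM_001039562), on chromosome 8 of mm9 at 47082261 to 47085204, overlaps Ufsp2 in the RefSeq annotation. Strand was not stated to be kept, so reads of these genes cannot be told apart where they overlap. Ufsp2 stood at 29.5 FPKM with IL-33 at 4 h against 24.1 FPKM in the control.

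Ddit4, or REDD1, an inhibitor of the growth kinase mTORC1, was high early. It stood at 159.98 FPKM with IL-33 at 1 h against 65.2 FPKM in the control (log2 change 1.28), and stood at 79.8 FPKM with IL-33 at 4 h against 56.4 FPKM in the control (0.49). With IL-4 it stood at 58.8 FPKM at 1 h against 69.0 FPKM in the control (-0.23) and at 54.8 FPKM at 4 h against 59.6 FPKM in the control (-0.12). The IL-33 1 h library held the highest level, and the order was thus the reverse of that of Ero1l, Egln3 and Ankrd37, whose IL-33 levels were highest at 4 h. Ddit4 (NM_029083) lies on chromosome 10 of mm9 at 59412422 to 59414518.

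**Figure D2:**
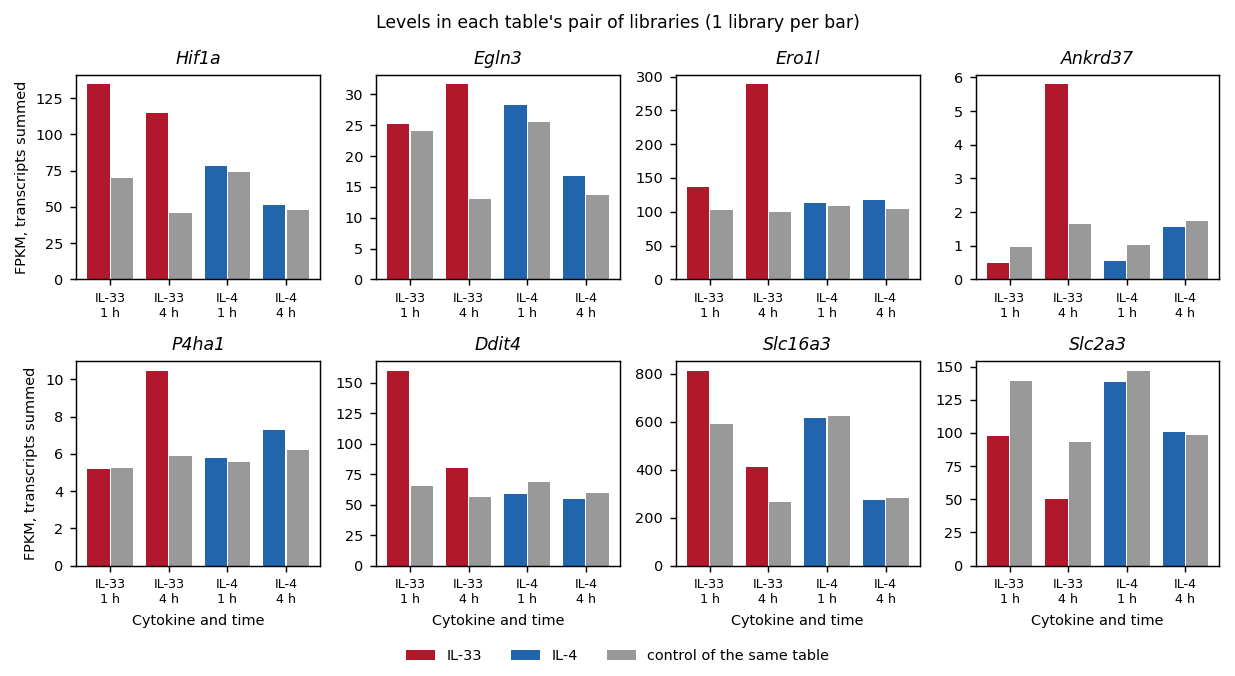
FPKM of 8 genes (vertical axes from 0) with IL-33 (red) or IL-4 (blue) and in the control column of the same table (grey), 1 library per bar, at 1 h and 4 h. Hif1a and Ddit4 stand above their controls already with IL-33 at 1 h (134 and 159.98 FPKM). Egln3, Ankrd37 and P4ha1 stand above theirs with IL-33 at 4 h, and Ero1l and Slc16a3 with IL-33 at both times. Slc2a3 stands below its control with IL-33 at both times. The tables of a time share their control library, scaled separately.

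The remaining HIF targets did not move together. P4ha1, a collagen prolyl hydroxylase subunit, stood at 10.5 FPKM with IL-33 at 4 h against 5.89 FPKM in the control (log2 change 0.73), and stood at 5.21 FPKM with IL-33 at 1 h against 5.26 FPKM in the control (-0.01). Ndrg1, a stress-response gene that hypoxia induces in many cells, stood at 5.38 FPKM with IL-33 at 4 h against 9.89 FPKM in the control (-0.77). Bnip3, a mitochondrial protein with a role in mitophagy, stood at 33.04 FPKM with IL-33 at 4 h against 51.3 FPKM in the control (-0.62). With IL-33 at 1 h, Ndrg1 and Bnip3 had log2 changes of -0.13 and -0.12. So of the 7 HIF targets measured with IL-33 at 4 h, 5 lay above 0 and 2 below it.

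Vegfa, the angiogenic growth factor, stood at 9.64 FPKM with IL-33 at 1 h against 6.67 FPKM in the control (0.47), and stood at 5.27 FPKM with IL-33 at 4 h against 4.89 FPKM in the control (0.09). With IL-4 at 4 h it stood at 3.49 FPKM against 5.16 FPKM in the control, and its log2 change of -0.46 was the lowest of any member with IL-4. Pdk1, a kinase that turns off pyruvate dehydrogenase, was under 1 FPKM in all libraries (0.595 to 0.961), and so was Adm, the vasodilator peptide adrenomedullin, which was listed at 0 in the control of 1 h and reached at most 0.219 FPKM.

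The letters upstream of the 5 genes called higher are shown because they shared a call with IL-33. RefSeq windows of the 250 bases before a start site, on build GRCm38.p6, were matched for 31 of the 34 members, with Ero1l through its newer symbol, and gave 45 windows. They were searched on both strands for the HIF core ACGTG or GCGTG and for the NF-kB consensus. Capitals mark these motifs in the windows below, each written 5′ to 3′ on the strand of the gene and ending at the base before the start site.
Hif1a: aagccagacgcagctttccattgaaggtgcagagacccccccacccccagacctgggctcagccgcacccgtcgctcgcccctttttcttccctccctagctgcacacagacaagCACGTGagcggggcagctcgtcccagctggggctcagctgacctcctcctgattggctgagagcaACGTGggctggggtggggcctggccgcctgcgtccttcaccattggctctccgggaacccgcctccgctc
Egln3: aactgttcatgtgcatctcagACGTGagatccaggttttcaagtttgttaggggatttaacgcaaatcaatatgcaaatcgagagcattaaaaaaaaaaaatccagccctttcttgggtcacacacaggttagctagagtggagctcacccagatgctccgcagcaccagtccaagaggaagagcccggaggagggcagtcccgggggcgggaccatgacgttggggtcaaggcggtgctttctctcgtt
Ero1l: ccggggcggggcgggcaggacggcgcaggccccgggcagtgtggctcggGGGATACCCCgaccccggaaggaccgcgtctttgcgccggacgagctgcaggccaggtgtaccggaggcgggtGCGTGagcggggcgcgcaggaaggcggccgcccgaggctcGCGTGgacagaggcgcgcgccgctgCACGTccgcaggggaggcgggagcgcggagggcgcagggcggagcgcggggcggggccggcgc
Ankrd37: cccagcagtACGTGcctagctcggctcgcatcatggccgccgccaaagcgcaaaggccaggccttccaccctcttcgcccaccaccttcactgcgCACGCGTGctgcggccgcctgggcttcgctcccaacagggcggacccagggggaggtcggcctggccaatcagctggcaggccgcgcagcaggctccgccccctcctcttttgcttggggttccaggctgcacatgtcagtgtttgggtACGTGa
Ddit4: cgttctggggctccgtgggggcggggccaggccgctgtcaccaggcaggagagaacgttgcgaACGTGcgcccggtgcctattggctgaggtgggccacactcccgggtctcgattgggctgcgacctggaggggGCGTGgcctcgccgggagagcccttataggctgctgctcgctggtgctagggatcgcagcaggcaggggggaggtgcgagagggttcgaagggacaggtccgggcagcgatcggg
The Hif1a window is chr12:73907617-73907866 on the plus strand, and the others lie on the minus strand at chr12:54203875-54204124 for Egln3, chr14:45318573-45318822 for Ero1l, chr8:45999851-46000100 for Ankrd37 and chr10:59951771-59952020 for Ddit4. All 5 hold a HIF core on at least 1 strand, with 1 match for Egln3 and 4 for Ankrd37. A palindrome such as the one in the Hif1a window counts on both strands. The NF-kB consensus was found in the Ero1l window alone among these 5, starting 201 bases before the start site, and also upstream of P4ha1, Pgk1, Pfkm and Vegfa.

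A HIF core stood in at least 1 window of 29 of 31 members and in 84.4% of their 45 windows, while 38.6% of 32851 windows of all genes held one. The members' windows were richer in G and C, with a median of 60.4% against 52.4% for all windows. Among all windows with at least 60.4% G and C, 64.1% held a HIF core. Members with small changes held the core as well: Ldha, with log2 changes between -0.21 and 0.00, had 5 matches in 1 window, and Egln1 had 2. The ACGTG form was in 51.1% of the members' windows and in 16.6% of all, and the NF-kB consensus in 11.1% and 7.25%. For these, no share among windows rich in G and C was taken. The members were listed for these pathways, and some windows of 1 gene overlap and share letters, so the contrasts with all windows carry no weight. A match is a description of the letters and not evidence of binding.

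The transporters at the entry and exit of glycolysis went different ways with IL-33. Slc2a3, the high-affinity glucose transporter GLUT3, stood at 97.3 FPKM with IL-33 at 1 h against 139 FPKM in the control, and stood at 50.1 FPKM with IL-33 at 4 h against 93.5 FPKM in the control (log2 changes -0.51 and -0.88). Its level was lowest in the IL-33 4 h library. With IL-4 it stood at 138 FPKM at 1 h against 147 FPKM in the control, and stood at 101 FPKM at 4 h against 98.7 FPKM in the control. Slc2a1, the basal transporter GLUT1, stood at 40.9 FPKM with IL-33 at 1 h against 35.4 FPKM in the control, and stood at 47.2 FPKM with IL-33 at 4 h against 40.7 FPKM in the control (0.20 and 0.21).

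Slc16a3, the lactate exporter MCT4, was among the most abundant members. It stood at 812 FPKM with IL-33 at 1 h against 589 FPKM in the control, and stood at 411 FPKM with IL-33 at 4 h against 266 FPKM in the control (0.46 and 0.63), and its log2 changes with IL-4 were -0.02 and -0.04. At 1 h all 3 transcripts stood above the control, at 517, 216 and 78.8 FPKM with IL-33 against 358, 166 and 66.0 FPKM in the control. At 4 h NM_001038653 stood at 231 FPKM with IL-33 against 148 FPKM in the control and NM_001038654 at 129 FPKM against 60.8 FPKM, while NM_030696 stood at 50.8 FPKM against 56.7 FPKM. Slc16a3 overlaps Csnk1d in the annotation, which stood at 51.1 FPKM with IL-33 at 4 h against 49.998 FPKM in the control.

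The hexokinases, which trap glucose in the cell, were led by Hk1 and Hk2. Hk2, the inducible form, stood at 9.57 FPKM with IL-33 at 1 h against 16.6 FPKM in the control, a log2 change of -0.74 and the lowest of any member at that time. At 4 h it stood at 27.1 FPKM with IL-33 against 33.8 FPKM in the control (-0.31). Hk2 thus made up 21.7% of the summed hexokinase FPKM with IL-33 at 1 h against 32.0% in the control, and 42.6% with IL-33 at 4 h against 42.8% in the control. Hk1, the housekeeping form, ranged from 25.8 to 35.7 FPKM, and Hk3 from 8.70 to 16.6 FPKM, with a log2 change of -0.44 with IL-33 at 4 h and of 0.26 with IL-4 at 4 h.

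Among the 3 forms of phosphofructokinase, which commits the sugar to glycolysis, only Pfkm, the muscle form, had a log2 change of at least 0.5 with IL-33. It stood at 2.98 FPKM with IL-33 at 1 h against 1.99 FPKM in the control (0.41), and stood at 4.06 FPKM with IL-33 at 4 h against 1.93 FPKM in the control (0.79). Pfkm was the scarcest of the 3 and made up 13.1% of their summed FPKM with IL-33 at 4 h against 7.83% in the control. With a pseudocount of 0.1 the log2 change at 4 h was 1.03, past the rule, but at 1 h Pfkm stayed within it. With the most abundant transcript alone, NM_001163488, the log2 change was 1.03 at 1 h, past the rule. At 4 h that transcript stayed within it, at 3.09 FPKM with IL-33 against 1.93 FPKM in the control. The transcript NM_001163487 was listed at 0 in the control of 4 h. At 1 h NM_001163487 went the other way, at 0.794 FPKM with IL-33 against 1.43 FPKM in the control. Pfkm overlaps Senp1 in the annotation, which stood at 9.28 FPKM with IL-33 at 4 h against 6.88 FPKM in the control (0.38), and the part of shared reads was not tested. Pfkl, the liver form, and Pfkp, the platelet form, stood at 14.4 and 12.5 FPKM with IL-33 at 4 h against 11.99 and 10.8 FPKM in the control.

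Pfkfb3 and Pfkfb4 make the sugar phosphate that activates phosphofructokinase. Pfkfb3 stood at 23.1 FPKM with IL-33 at 4 h against 24.2 FPKM in the control and Pfkfb4 at 15.0 FPKM against 22.2 FPKM (-0.06 and -0.53). At 1 h their log2 changes with IL-33 were -0.20 and -0.14. No PFK-2 gene was thus above its control with IL-33, and neither was past the rule.

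The enzymes of the middle and end of the pathway stayed within the rule, and all of them but Aldoc were abundant. Gpi1, which isomerises glucose 6-phosphate, stood at 369 FPKM with IL-33 at 4 h against 535 FPKM in the control (-0.53), and stood at 492 FPKM with IL-33 at 1 h against 521 FPKM in the control (-0.08). Eno1, the enolase, stood at 195 FPKM with IL-33 at 4 h against 145 FPKM in the control (0.43). Aldoa, the main aldolase, stood at 1249 FPKM with IL-33 at 4 h against 1078 FPKM in the control (0.21), while Aldoc, the brain form, stood at 8.17 FPKM against 11.4 FPKM (-0.44). The enzymes of the middle of the pathway thus lay on both sides of 0.

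Tpi1, the triose isomerase, had log2 changes of -0.04 and 0.17 with IL-33 at 1 h and 4 h, and Gapdh, the dehydrogenase often used as a loading control, of -0.08 and -0.07. For the kinase Pgk1 they were 0.02 and -0.26, for the mutase Pgam1 -0.29 and -0.23, and for Ldha, the lactate dehydrogenase A chain, -0.03 and -0.21. Named pseudogene copies of Aldoa, Gapdh, Pgk1, Pgam1 and Ldha exist in the RefSeq annotation and may share reads with them, so their exact levels are uncertain. Summed over the 15 enzymes, the level was 4249 FPKM with IL-33 at 1 h against 4455 FPKM in the control, and 3608 FPKM with IL-33 at 4 h against 3750.2 FPKM in the control.

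**Figure D3:**
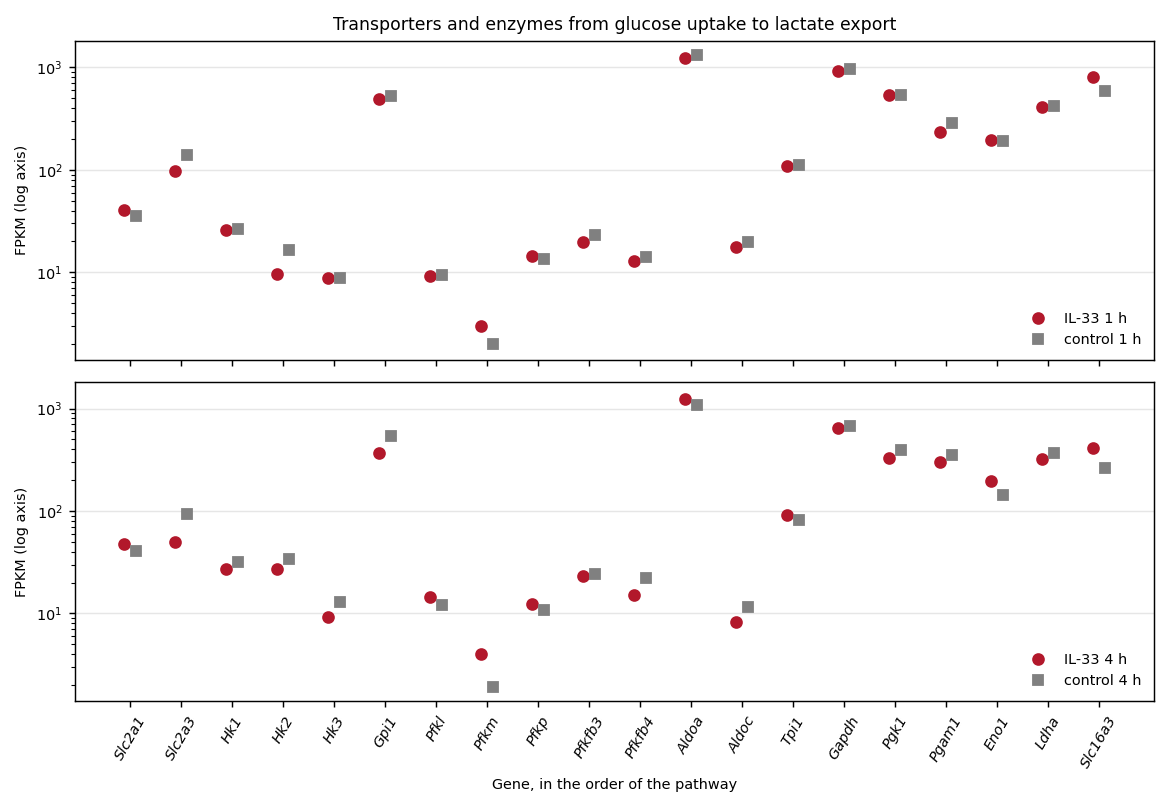
FPKM (log axis) of the 20 glycolysis genes in pathway order from glucose uptake to lactate export, with IL-33 (red circles) and in the control of the same table (grey squares) at 1 h (top) and 4 h (bottom), 1 library per point. The widest gap at 1 h is that of Hk2 (9.57 against 16.6 FPKM), and the widest at 4 h are those of Pfkm (4.06 against 1.93 FPKM) and Slc2a3 (50.1 against 93.5 FPKM).

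At a lower limit of 0.5 in log2, 2 glycolysis genes lay above with IL-33 at 4 h, Pfkm and Slc16a3, and 3 lay below, Gpi1, Pfkfb4 and Slc2a3. For the HIF pathway the counts were 5 above, the 4 called genes and P4ha1, and 2 below, Bnip3 and Ndrg1. Of all genes, 9.5% lay above and 10.2% below that limit. At 1 h, Hif1a and Ddit4 lay above it and Hk2 and Slc2a3 below it, where 5.64% of all genes lay above and 4.14% below.

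**Figure D4:**
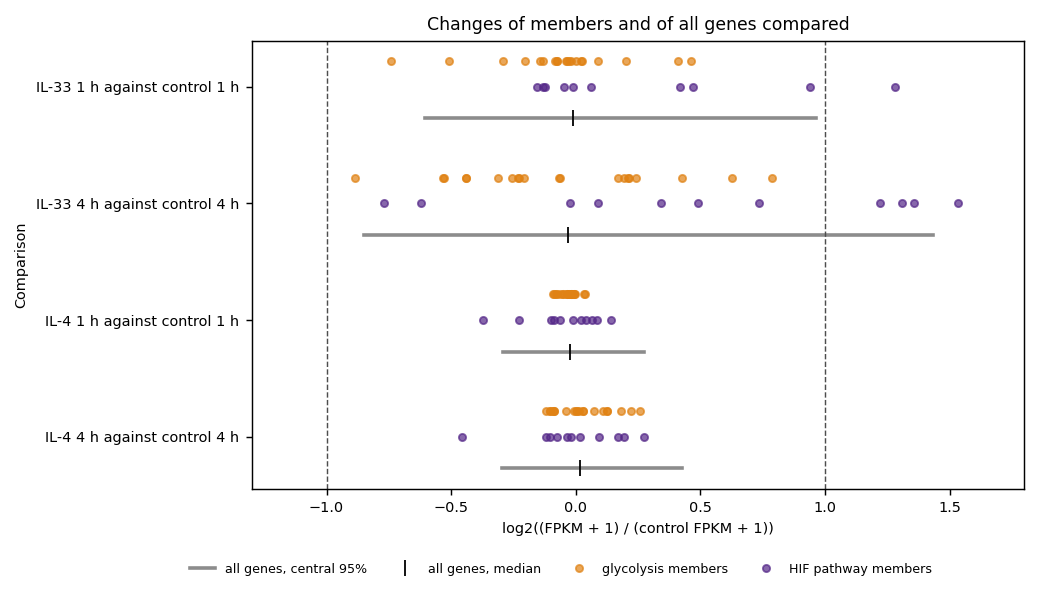
Log2 change (horizontal axis) of the glycolysis genes (orange points) and HIF pathway genes (purple points) in the 4 comparisons (rows), 1 library per group, beside the central 95% (grey bar) and the median (black tick) of all genes compared; dashed lines mark a change of 1 in size. Among the members, purple points alone lie past the dashed lines, 1 with IL-33 at 1 h and 4 with IL-33 at 4 h.

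IL-4 left these genes near their controls at both times. None of 31 measured members was higher or lower with IL-4 at 1 h, where 0.47% of 10628 genes were higher and 0.358% lower. The same held at 4 h, where 0.646% of 10833 genes were higher and 0.351% lower. No member reached 0.5 in size at either time, a limit that 0.95% of all genes passed upward and 0.772% downward at 1 h, and 2% upward and 0.886% downward at 4 h. The members' log2 changes ran from -0.37 (Ankrd37) to 0.14 (Egln3) at 1 h and from -0.46 (Vegfa) to 0.27 (Egln3) at 4 h. The central 95% of all genes ran from -0.29 to 0.28 at 1 h and from -0.30 to 0.43 at 4 h. Ankrd37 at 1 h and Vegfa at 4 h thus lay below it. Transcripts of 1 gene could differ more than their sum: with IL-4 at 4 h the Hk3 transcript NM_001206390 stood at 10.3 FPKM against 2.76 FPKM in the control and NM_001206391 at 2.66 FPKM against 7.50 FPKM, while summed Hk3 stood at 16.6 FPKM against 13.7 FPKM. How reads were shared among such transcripts of 1 gene is uncertain.

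The difference between the cytokines was taken as the IL-33 change minus the IL-4 change of the same time, which share the control library. At 1 h it was largest for Ddit4 (1.51) and Hif1a (0.86), and lowest for Hk2 (-0.73) and Slc2a3 (-0.42). At 4 h it was 1.46 for Ankrd37, 1.36 for Ero1l, 1.21 for Hif1a and 0.95 for Egln3, and -0.91 for Slc2a3, -0.73 for Ndrg1 and -0.70 for Hk3. These values have no error, since each rests on 3 libraries from 2 tables.

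Untreated cells of 4 h were compared with untreated cells of 1 h through the controls of both IL-4 tables, which is a comparison across separately normalised tables. Slc16a3 was lower, at 280.3 FPKM at 4 h against 624 FPKM at 1 h (log2 change -1.15), and was the 1 glycolysis gene of 20 past the rule. No HIF pathway gene of 11 was past it. Of 10813 genes compared, 0.879% were higher and 1.56% lower, and their median log2 change was 0.10.

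Several members differed by over 0.5 in log2 between the untreated libraries. Hk2 stood at 35.7 FPKM at 4 h against 17.6 FPKM at 1 h (0.98), just short of the rule, Pfkfb4 at 23.4 FPKM against 15.1 FPKM (0.60) and Hk3 at 13.7 FPKM against 9.34 FPKM (0.51). Below their values of 1 h stood Egln3 (13.7 FPKM at 4 h against 25.5 FPKM at 1 h, -0.85), Aldoc (12.1 against 20.8, -0.73), Hif1a (48.1 against 73.7, -0.60), Slc2a3 (98.7 against 147, -0.57) and Gapdh (711 against 1031, -0.53). These make 3 members above and, with Slc16a3, 6 below, where 9.29% of all genes lay above 0.5 and 4.74% below. The control 4 h library enters these changes and those with IL-33 at 4 h on opposite sides, so their directions are not compared.

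**Figure D5:**
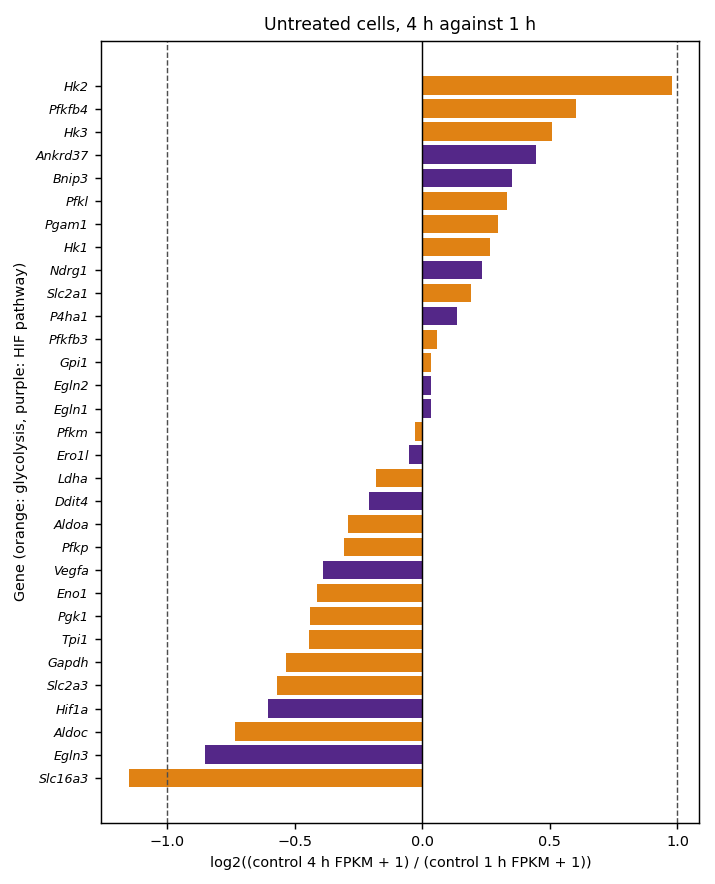
Log2 change of the 31 measured members in untreated cells, 4 h against 1 h, across the controls of both IL-4 tables (1 library per time), for glycolysis (orange) and HIF pathway genes (purple); dashed lines mark a change of 1 in size. Hk2 at the top (0.98) and Slc16a3 at the bottom (-1.15) stand farthest from 0.

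Neighbouring genes of the pathway were counted from lists that held no member. Of 10 other glycolytic enzymes measured with IL-33 at 4 h, none was higher and 1 was lower, Ldhc, a lactate dehydrogenase chain best known from testis. Ldhc stood at 40.2 FPKM with IL-33 against 97.4 FPKM in the control (-1.25). The 10 enzymes had a median log2 change of -0.33. At a limit of 0.5, 4 of them lay below and 0 above, where 10.2% of all genes lay below and 9.5% above. Among the 4, Pgam2 stood at 9.45 FPKM with IL-33 against 19.4 FPKM in the control (-0.97) and Adpgk at 62.6 FPKM against 122 FPKM (-0.95). Pkm2, which encodes pyruvate kinase, the last step before lactate dehydrogenase, stood at 582 FPKM against 664 FPKM (-0.19). Of 7 other glucose and monocarboxylate transporters measured, 1 was higher, Slc2a6 (GLUT6), at 252 FPKM with IL-33 at 1 h against 33.6 FPKM in the control, and stood at 214 FPKM with IL-33 at 4 h against 39.5 FPKM in the control (2.87 and 2.40). Slc2a6 stood above Slc2a3 in FPKM with IL-33 at both times, whereas in both controls Slc2a3 was the more abundant.

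Of 29 other HIF targets measured with IL-33 at 4 h, 5 were higher and 1 lower, with a median of -0.02. Of all genes, 4.15% were higher and 1.38% lower. Hmox1, the heme-degrading enzyme, stood at 406 FPKM against 51.1 FPKM in the control (2.96), and Ier3 at 84.5 FPKM against 18.6 FPKM (2.13). Ak4 and Pgf were also higher, at 1.29 and 1.53 FPKM with IL-33 against 0.0933 and 0.223 FPKM in the control. In all, 3 of the 5, with Ak4 and Pgf among them, were under 1 FPKM in the control and so measured through the IL-33 library alone, where the count carries no weight. Selenbp1 was lower, at 3.52 FPKM against 8.41 FPKM (-1.06). Hmox1 and Ier3 are also known targets of pathways other than HIF. At 1 h, 2 of 28 were higher, with Ier3 among them (116 FPKM with IL-33 against 30.5 FPKM in the control, 1.90), where 2.36% of all genes were higher. None of 13 other HIF pathway regulators was higher or lower with IL-33 at either time. With IL-4, Pgf at 4 h was the 1 gene past the rule among these lists (1.55 FPKM against 0.235 FPKM in the control), and it was measured through the IL-4 library alone, so the count carries no weight.

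Of 8 pentose phosphate pathway genes, none was past the rule with IL-33 at 4 h. Pgd stood at 588 FPKM against 314 FPKM in the control (0.91) and G6pdx at 145 FPKM against 97.3 FPKM (0.57). The median log2 change of the 8 was -0.08, with 3 above 0 and 5 below it. Of 11 genes of glycogen and gluconeogenesis, 1 was higher, where 4.15% of all genes were. It was Fbp1, the fructose bisphosphatase that opposes phosphofructokinase (64.3 FPKM with IL-33 against 16.7 FPKM in the control, 1.89). Pygl, of the same list, stood at 182 FPKM with IL-33 against 337 FPKM in the control (-0.88), within the rule. Of the 11, 4 lay above 0 and 7 below it. None of 9 genes of pyruvate dehydrogenase and its kinases was higher or lower.

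The authors' deposited tables mark transcripts by Cuffdiff's q-values from a pair of libraries, so a mark tells these libraries apart and says nothing on replicates of a condition. At IL-33 4 h the authors' deposited table marked 7 of 48 tested member transcripts, all of them with more FPKM in the IL-33 library, where 8.33% of all tested transcripts were marked. Hif1a, Egln3, Ero1l and Ankrd37 were among them, and 3 of the 7 belonged to genes with several transcripts. At IL-33 1 h the authors' deposited table marked 4 of 48, with Ddit4 above and Hk2 below the control, where 9.58% of all were marked, and 2 of the 4 belonged to genes with several transcripts. At IL-4 1 h the authors' deposited table marked 5 of 48, with Ddit4 below the control, where 12.5% of all were marked, and 4 of the 5 belonged to such genes. At IL-4 4 h the authors' deposited table marked 13 of 47 where 12.5% of all were marked, and 10 of these 13 belonged to such genes. Of the 13, 7 stood above the control and 6 below it. Egln3, Eno1 and Ero1l, each with 1 transcript, were marked above the control, with log2 changes of 0.27, 0.22 and 0.17.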

How the data were processed

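The members, lists and tests were chosen with earlier results of these data known. FPKM values per RefSeq transcript were deposited by the authors in 4 tables of 28702 transcripts, each with 1 treated library and its control. The submitters' processing notes name TopHat 1.4.1, Cuffdiff 1.2.1 and the build mm9. No source used here gives read trimming or the RefSeq release. The q-values deposited by the authors were read only as their marks (q under 0.05). The log2 fold changes in the authors' deposited list of 1593 genes, which names 11 members, are not used as results.

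The tables were normalised separately: the control in the IL-33 table was 0.945 (1 h) and 0.947 (4 h) times that in the IL-4 table. Each treated library was compared with its own table's control. Transcripts were summed per symbol, and where a symbol had more than 1 locus (232 symbols) only the locus with most FPKM was used. The pseudocount, minimum level and threshold were 1 each. All members were named, those with a log2 change of at least 0.5 with their values, and from other lists up to 4 genes past the rule at 5 FPKM or more. Arnt, Pkm2, Pgam2, Adpgk, Pgd, G6pdx, Pygl, Ak4, Pgf, Cited2, Atf4, Sesn3 and genes that overlap members were named after their values were seen. Some genes of the other lists are counted but not reported here by name. The steps were run on simulated data with large set changes and little noise, which checks the arithmetic and says nothing on the calls made here. No column of values was left unmapped. Python 3.11.15 and pandas 2.3.3 were used. The alternatives are given in the closing section. Depth limits low values most, and intervals could not be given without counts.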

Additional observations from a re-analysis of the deposited data

How the results depend on the processing

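Of the recomputed member values, 1055 kept their side of the threshold, 15 crossed it and no called value changed sign. Ddit4 with IL-33 at 1 h and Ero1l with IL-33 at 4 h were called under every alternative run. Against the control of the other time, across tables, the members higher numbered 3 with IL-33 at 1 h (against 1 as reported), 2 with IL-33 at 4 h (against 4), and 1 each with IL-4 at 1 h and 4 h (against 0). The members lower then numbered 1, 2, 0 and 1 in the same order (against 0 each). All genes moved too. In that order, 4%, 4.45%, 1.64% and 1.18% of them were then higher, against 2.36%, 4.15%, 0.47% and 0.646% as reported. Those lower were 3.19%, 1.84%, 1.08% and 1.4%, against 0.669%, 1.38%, 0.358% and 0.351% as reported. With the most abundant transcript of each gene, the members higher were 2 with IL-33 at 1 h (Pfkm and Ddit4) and 1 with IL-4 at 4 h (Hk3). Of all genes, 2.48% and 0.945% were then higher. At a threshold of 0.5, the members higher were 2 with IL-33 at 1 h, 7 with IL-33 at 4 h and 3 in untreated cells of 4 h. Those lower were 2, 5 and 6. Of all genes, 5.64%, 9.5% and 9.29% were then higher and 4.14%, 10.2% and 4.74% lower, in the same order. With a pseudocount of 0.1, 1 member, Hk2 (1.02), was higher in untreated cells of 4 h, as were 2.15% of all genes. The cause of these moves was not tested, apart from those that the lower threshold makes by itself. All other settings, including no minimum level, a minimum of 5 FPKM and rescaling to a median of 0, kept the counts within 1.5 times. No replicate could be left out, and no paired analysis was possible because each group has 1 library. Low genes such as Ankrd37 and Pfkm are limited by depth.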

Other observations

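Cited2, a protein that competes with HIF for its coactivators, had the largest change with IL-4 among 13 measured HIF pathway regulators outside the members. It stood at 90.9 FPKM with IL-4 at 1 h against 49.99 FPKM in the control (log2 change 0.85), and at 68.3 FPKM with IL-4 at 4 h against 56.7 FPKM in the control (0.26). With IL-33 at 1 h it stood at 39.1 FPKM against 47.2 FPKM in the control (-0.27).

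Of 20 measured genes of energy and stress sensing listed beside Ddit4, 2 were higher with IL-33 at 1 h, both of the growth arrest family: Gadd45b stood at 268 FPKM against 35.4 FPKM in the control (2.88) and Gadd45a at 375 FPKM against 124 FPKM (1.59). At 4 h Gadd45b and Arrdc4, a gene that responds to glucose, were higher with IL-33, Arrdc4 at 43.4 FPKM against 11.2 FPKM in the control (1.86). Arrdc4 stood lower in untreated cells of 4 h, at 11.9 FPKM against 27.8 FPKM at 1 h (-1.16). The control 4 h library enters both Arrdc4 changes on opposite sides, so their directions are not compared. The Arrdc4 level in the control of 1 h, in a separately normalised table, was nearer to that with IL-33 at 4 h. Fam162a, a HIF target listed with the others, was also lower in untreated cells of 4 h, at 9.38 FPKM against 23.8 FPKM (-1.25). Atf4, a transcription factor of the stress response, stood at 229 FPKM with IL-33 at 1 h against 153 FPKM in the control (0.58). Sesn3 was the 1 gene of the list lower with IL-33 at 4 h, at 1.02 FPKM against 3.36 FPKM in the control.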
